A study of Mus musculus with 24 samples.

Results

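The 10 genes described here belong to the epidermal growth factor (EGF) receptor system and were followed across 24 RNA-seq libraries of C127l cells, which the labels call adenocarcinoma cells. The set is a list of symbols, chosen with earlier results of these data known. It holds the receptor Egfr, its ligands Areg, Ereg, Hbegf and Tgfa, the feedback genes Errfi1, Spry2, Spry4 and Spred1, and Phlda1. All 10 members were present in all 6 deposited tables, among 22475 genes that could be joined over the 24 libraries by transcript, and 7 members were among the 12179 genes tested. Per the labels every library came from cells whose own glucocorticoid receptor was knocked out (GRKO) and which carried a GFP-tagged mouse receptor, either GFP-mGRtetra (here tetra) or GFP-mGRwt (here wt). The name GRtetra is used in the literature for a point mutant of the DNA-binding domain that takes up a tetrameric state, and the labels describe it no further. Before treatment the medium held charcoal-stripped serum for 24 h, and cells were then given TCA at 100 µM plus corticosterone (Cort, the mouse's own glucocorticoid hormone) at 100 nM, Cort alone, TCA alone, all for 2 h, or vehicle. The labels leave TCA as an abbreviation, usually read as taurocholic acid in work on bile acids. Each of the 8 groups held 3 libraries. The labels do not say whether a line is 1 clone or a pool, which promoter drives the receptor, or whether replicates came from separate cultures, so p-values measure the spread between these libraries, which may be technical. Since all 8 groups carried one or the other receptor, whether a response needs the receptor was not tested.

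The EGF receptor is a tyrosine kinase at the cell surface that ligands activate by making it pair with itself or with the related receptors Erbb2, Erbb3 and Erbb4. Its ligands are made as membrane proteins and released by cutting enzymes of the ADAM family, and the active receptor drives the Ras, Raf, MEK and ERK kinase chain. That chain in turn switches on inhibitors that hold it back, and glucocorticoids are known to induce one of them, Errfi1, in several cell types.

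Nr3c1, the gene of the glucocorticoid receptor, was read in every library at 4176 to 6481 normalised counts. It had 4876 to 6481 in tetra libraries, 4176 to 4308 in the wt libraries given TCA and 5266 to 6138 in the wt libraries without TCA. A normalised read count here is the number of exon reads recovered from the deposited values, divided by the library's size factor. Reads of the transgene and of the knocked-out locus fall together there, and the line labels cannot be checked on them. The Cort labels were checked on the well-known targets Per1 and Tsc22d3. In tetra cells Per1 was 2.41 and Tsc22d3 1.76 higher on the log2 scale with Cort than with vehicle, and in wt cells 2.76 and 1.58 higher (limma adjusted p at most 1.94e-12). Libraries held 22.0 to 30.6 M exon reads, and the ribosomal precursor Rn45s took 18.2 to 28.6% of them.

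The wt libraries with and without TCA lay apart from each other. On the first principal component of all tested genes, which held 40.1% of the variance, the 6 wt libraries given TCA, with or without Cort, lay between 25.1 and 27.1. The 12 tetra libraries lay between -1.23 and 5.46, and the 6 wt libraries without TCA between -33.0 and -29.1. Dusp4, a phosphatase of ERK, also differed between the wt libraries with and without TCA, with the tetra libraries near those with TCA. It averaged 733 ± 150 counts in wt TCA cells and 606 ± 6.64 in wt TCA plus Cort cells, near the 529 to 720 of the tetra group means, against 2886 ± 156 in wt Cort and 4134 ± 111 in wt vehicle cells (SD, n = 3 each). The labels give no batch. In wt, TCA cannot be told apart from anything else that differs between the 6 libraries with it and the 6 without. Every wt result with TCA below rests on the former 6, and every comparison with wt vehicle or wt Cort on the latter 6. Of all genes tested, 57.6% differed between TCA and vehicle in wt.

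The labelled cell type was set against marker genes. Of 6 epithelial markers, Epcam was at 0 in all 24 libraries, Cdh1, Krt5 and Krt18 reached at most 2.06 counts, Krt8 at most 18.5 and only Krt14 passed the filter, at 137 to 1211 counts. Of 5 mesenchymal markers, Vim (61417 to 118203 counts) and Col1a2 (39632 to 62685 counts) were abundant. Pdgfrb had 3155 to 7803 counts, Pdgfra 399 to 815 and Col1a1 79.4 to 237. The markers thus do not show the epithelial profile that the term adenocarcinoma would lead one to look for. Summed over the 6 epithelial markers the count was 494 to 732 in the tetra libraries of all 4 groups. In wt libraries it was 140 to 183 with TCA plus Cort, 908 to 1213 with Cort, 156 to 267 with TCA and 1071 to 1225 with vehicle. The sum over 5 mesenchymal markers was 146503 to 159510 in tetra libraries, 118573 to 134080 in the wt libraries with TCA and 156294 to 172739 in those without. This sum is mostly Vim and Col1a2, and with TCA against vehicle in wt 2 of the 5 markers rose and 3 fell. Col1a2 averaged 56352 ± 2146 counts in wt TCA and 45620 ± 390.3 in wt vehicle cells and Col1a1 169 ± 18.1 and 103 ± 26.7, while Vim averaged 66283 ± 4179 and 116688 ± 1314, and Pdgfra and Pdgfrb fell as well (limma adjusted p at most 0.000176, SD, n = 3 each). The summed immune (Cd68, Csf1r, Cd3e) and adipocyte (Adipoq, Fabp4, Plin1) markers and the endothelial Cdh5 had lower ranges in wt with TCA than in wt without it, the immune sum mostly through Cd68 and the adipocyte sum through Fabp4. Csf1r averaged 10.2 ± 6.89 counts in wt TCA and 8.73 ± 2.90 in wt vehicle cells, and Plin1 7.61 ± 4.61 and 8.30 ± 2.22. Immune sums were 94.97 to 131 against 176 to 246 counts, adipocyte sums 42.5 to 61.6 against 89.2 to 243, and Cdh5 93.2 to 160 against 266 to 308, while Cd3e and Adipoq were at most 1.92 in any library. In tetra libraries the immune sums were 84.7 to 134, the adipocyte sums 72.1 to 260.2 and Cdh5 148 to 233. What part these shifts have in the results with TCA in wt was not tested.

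The receptor itself was close to absent. Egfr (chromosome 11, 16752203 to 16913907 in mm10) had between 0 and 7 reads per library, 43 in all over the 12 tetra libraries and 21 over the 12 wt libraries. In tetra cells the 3 libraries held 3, 5 and 1 reads with TCA plus Cort, 5, 1 and 3 with Cort, 5, 4 and 4 with TCA, and 2, 3 and 7 with vehicle. In wt cells they held 2, 1 and 0 reads with TCA plus Cort, 5, 0 and 1 with Cort, 2, 1 and 5 with TCA, and 2, 1 and 1 with vehicle. All 8 groups overlapped their neighbours in the order of means. Egfr did not pass the filter of a mean of 10, and without that filter no comparison called it (limma adjusted p between 0.346 and 1). Among its partners, Erbb2, which binds no ligand of its own, had 1555 to 1878 normalised counts per library, Erbb3 had 10.6 to 60.2, and Erbb4 at most 1.18.

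Another 2 members were listed at 0 in all 24 libraries. They were Tgfa (chromosome 6, 86195227 to 86275743), the ligand transforming growth factor alpha, and Spry4 (chromosome 18, 38586247 to 38601347), a Sprouty inhibitor of Ras signalling. A count of 0 allows up to 3 reads, which is 0.0981 to 0.136 CPM of exon reads, and this limit covers counting error only. No fold change is given for Egfr, Tgfa or Spry4.

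The other 7 members were read in every library, and their levels are compared per kb of transcript. Phlda1, a nuclear and cytoplasmic protein with a pleckstrin homology-like domain, was the highest, with a mean of 759 normalised reads per kb over the 24 libraries. Spred1 (chromosome 2, 117121071 to 117182277), an inhibitor that blocks Raf activation, had 257 and Errfi1, which binds the receptor's kinase domain and shuts it off, had 178. The inhibitor Spry2 (chromosome 14, 105891947 to 105896819) had 129 and the ligands Hbegf (heparin-binding EGF), Areg (amphiregulin) and Ereg (epiregulin) had 123, 95.8 and 83.3. Egfr, the receptor of these ligands, had 0.444.

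**Figure D1:**
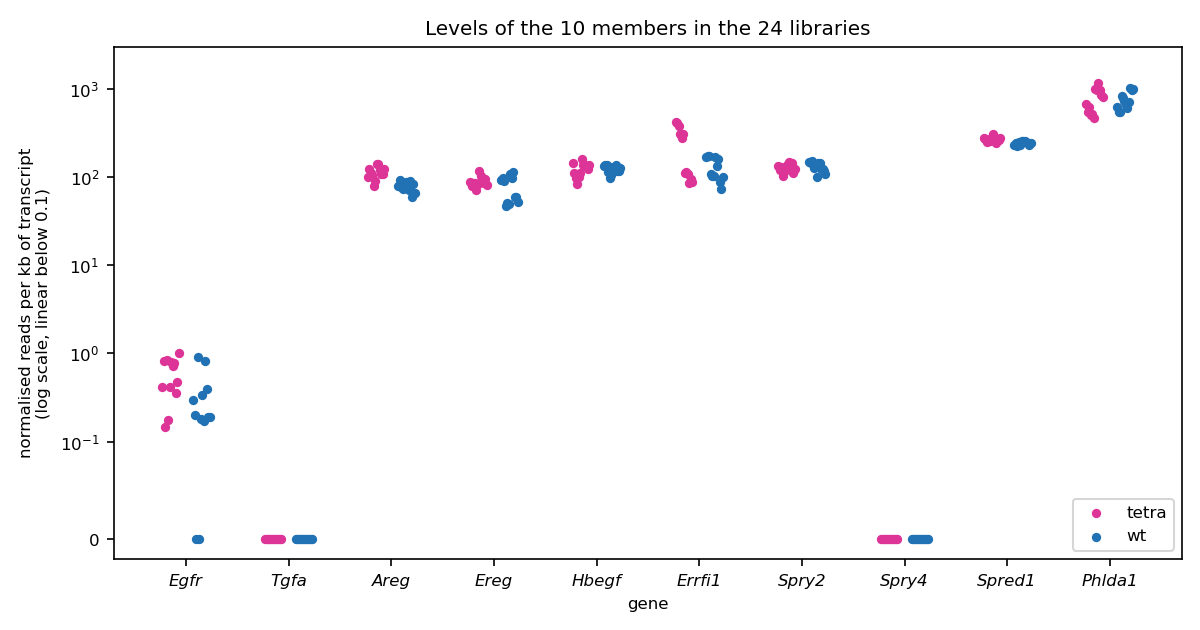
Normalised reads per kb of transcript (y axis, log scale, linear below 0.1) for the 10 members (x axis), with 1 point for each of 12 tetra and 12 wt libraries. Egfr stays at or below 1.01, Tgfa and Spry4 are at 0 in every library, and the other 7 members lie between 46.9 and 1178.

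How far the members varied between the 8 groups differed among them. The highest group mean of Errfi1 was 4.67 times the lowest, that of Ereg 2.20 times, of Phlda1 2.10 times, of Areg 1.93 times, of Hbegf 1.48 times, of Spry2 1.30 times and of Spred1 1.17 times. Spry2, Spred1 and Areg overlapped at all 7 steps of their order, so no 2 neighbouring groups could be separated by their ranges. Hbegf overlapped at 6 of 7 steps, Ereg and Phlda1 at 5 and Errfi1 at 3.

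Errfi1 gave the clearest order. Its mean was highest in tetra TCA plus Cort cells (1230.2 ± 74.9 counts), followed by tetra Cort (902 ± 49.5), and neither range touched the next. Then came wt TCA plus Cort (523 ± 11.7) and wt TCA (472 ± 53.0), which overlapped. Below a gap came tetra TCA (337 ± 9.23) and wt Cort (319 ± 8.49), which overlapped, and below another gap tetra vehicle (273 ± 16.3) and wt vehicle (264 ± 39.5), which overlapped too (SD, n = 3 each).

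The order of Phlda1 ran in part the other way. Tetra TCA was highest (2049.6 ± 218 counts), then wt vehicle (1933 ± 58.3), tetra vehicle (1722 ± 178) and wt Cort (1536 ± 85.0), each overlapping the next. After a gap came wt TCA (1287 ± 101), tetra TCA plus Cort (1205 ± 113) and wt TCA plus Cort (1123 ± 81.0), which overlapped in turn, and after another gap tetra Cort was lowest (974.9 ± 53.9). In the plot of both genes by library, the tetra libraries with Cort hold high Errfi1 and low Phlda1, and the vehicle libraries the reverse.

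The ligand Ereg separated the wt groups without TCA from all others. Its mean was highest in wt TCA (446 ± 36.1 counts), then tetra TCA (439 ± 48.2), wt TCA plus Cort (389 ± 16.9), tetra vehicle (359 ± 30.1), tetra TCA plus Cort (349 ± 15.3) and tetra Cort (333 ± 31.2), each overlapping the next. After gaps came wt vehicle (236 ± 16.9) and wt Cort (203 ± 8.04).

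Areg was ordered by line. Its 4 tetra means, 135 ± 13.7 with TCA plus Cort, 110.5 ± 15.9 with Cort, 162 ± 14.0 with TCA and 137 ± 10.2 with vehicle, lay above its 4 wt means. These were 100.5 ± 10.9 with TCA plus Cort, 95.4 ± 9.22 with Cort, 99.7 ± 11.96 with TCA and 84.0 ± 14.6 with vehicle, and neighbouring groups overlapped throughout. Hbegf ran between 233 ± 30.9 in tetra Cort and 344 ± 33.2 in tetra TCA. Its only gap between neighbours was narrow, from 324 as the lowest tetra TCA library to 323 as the highest wt TCA plus Cort library. The tetra TCA range overlapped those of tetra vehicle, wt TCA and tetra TCA plus Cort, which stood lower in the order. Spry2 ran between 238 ± 22.1 in tetra Cort and 309.5 ± 9.59 in wt TCA plus Cort, and Spred1 between 1485 ± 66.0 in wt TCA plus Cort and 1743 ± 205 in tetra TCA (SD, n = 3 each).

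**Figure D2:**
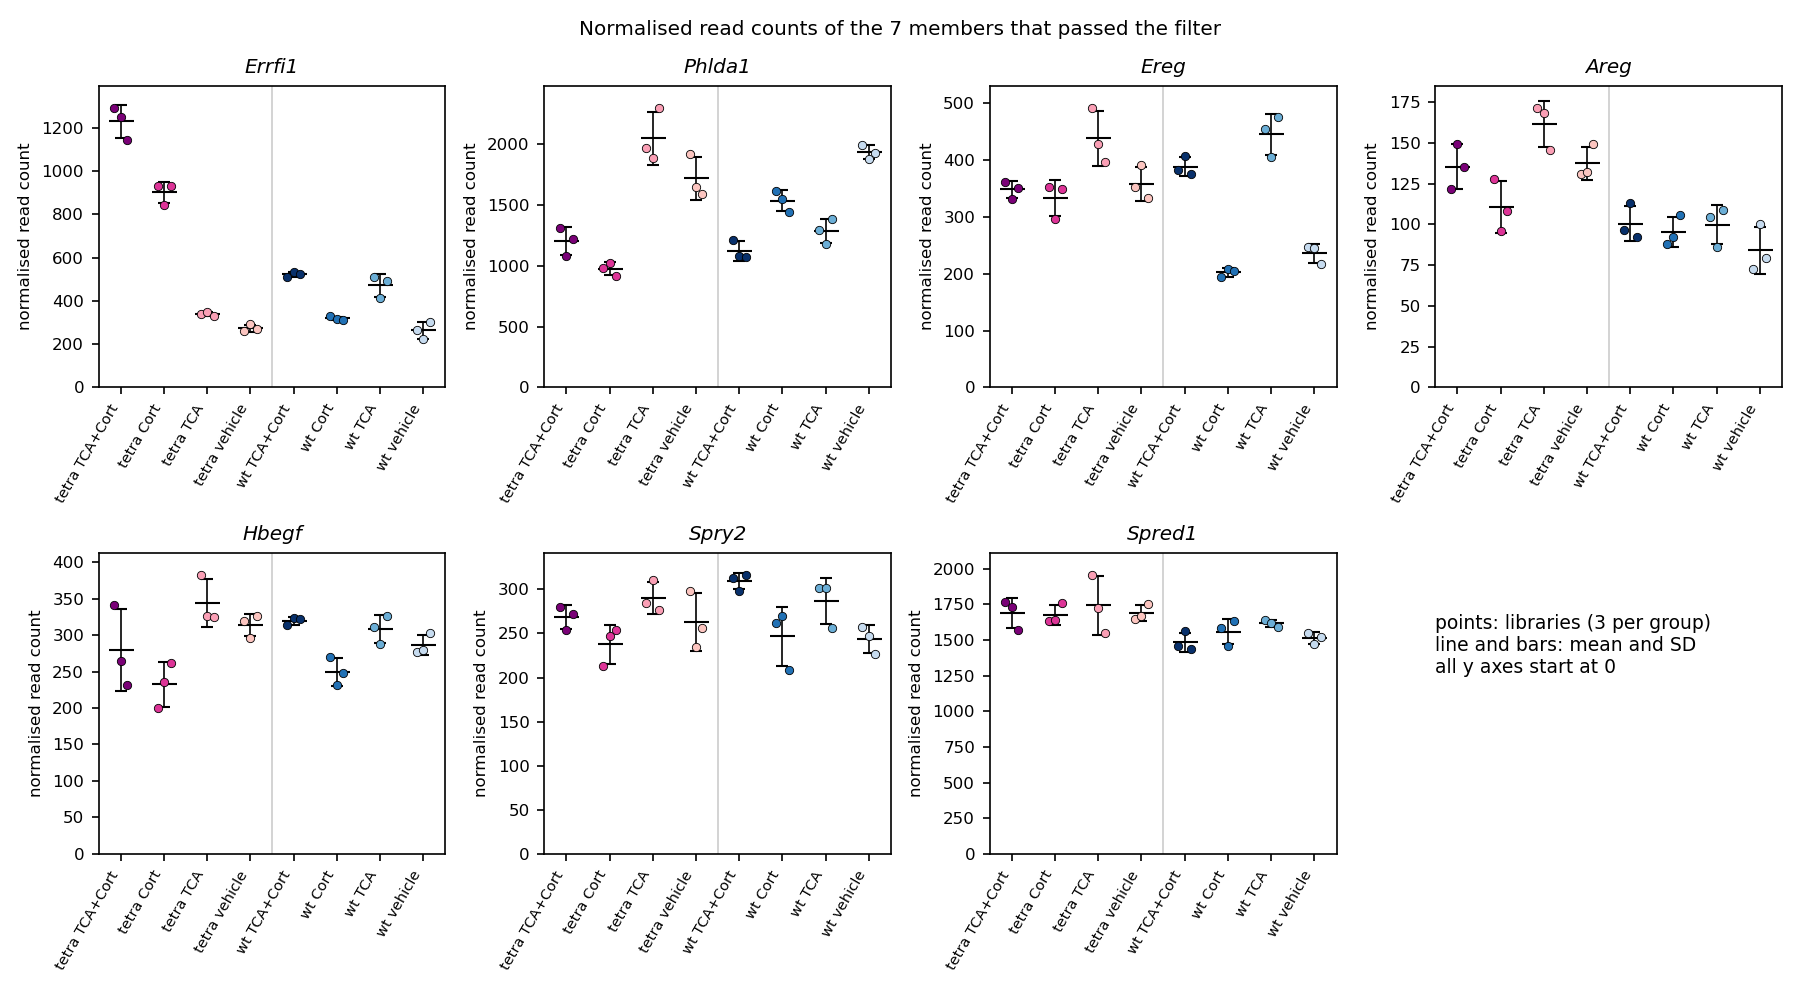
Normalised read count (y axes, from 0) of the 7 members that passed the filter, in the 8 groups (x axes). Points are libraries, 3 per group, and the line and bars are the mean and SD. Errfi1 reaches 845 or more only in the tetra libraries with Cort, while Spred1 lies between 1436 and 1957 in all 24 libraries.

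**Figure D3:**
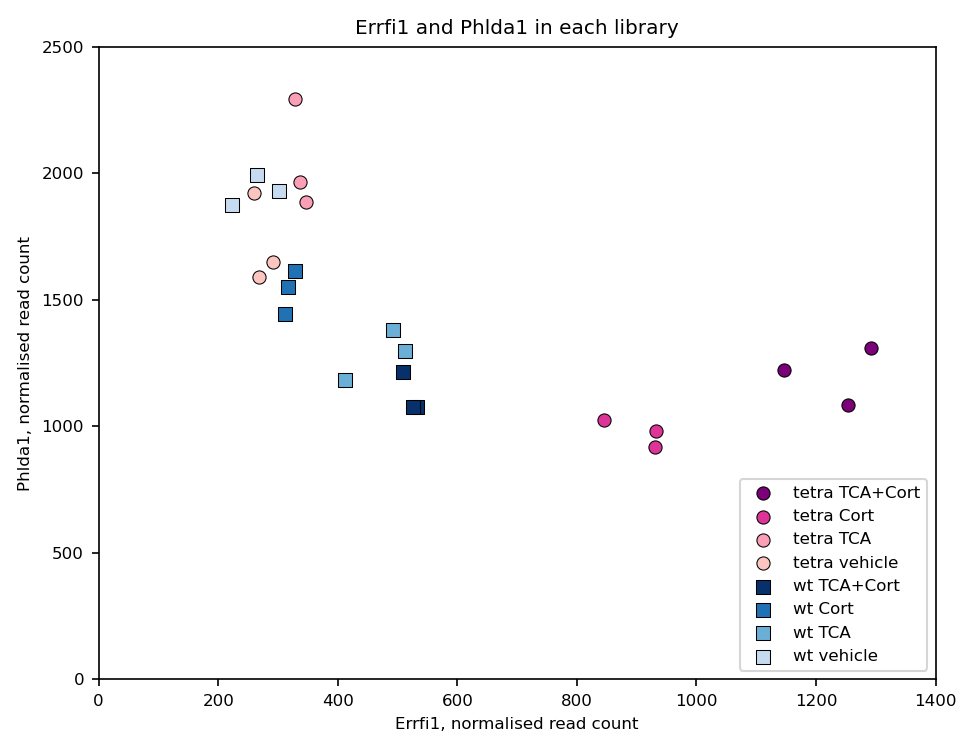
Normalised read count of Phlda1 (y axis) against that of Errfi1 (x axis), with 1 point per library and a colour per group. The 6 tetra libraries with Cort lie at 845 to 1291 on the x axis and 918 to 1308 on the y axis, away from the other 18.

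Promoter sequences of RefSeq (GRCm38.p6, the mm10 build) covered 6 members in 7 windows from 250 bases before to 50 after the gene start, with Errfi1 holding 2 of them. None of the 7 windows held the glucocorticoid response element (AGAACA, then NNN, then TGTTCT, with up to 2 mismatches outside the N), its second arm TGTTCT or the AP-1 site TGANTCA on either strand, and 1.84%, 19.0% and 7.81% of all 32851 windows did. The arm is part of the full element. No match says only that these letters are not in the window. On reading the sequences, 2 windows were seen to hold TGACGTCA, the cyclic AMP response element, which is its own reverse complement and which 1.79% of all windows held. These are 1 of the 2 windows of Errfi1 and the window of Areg. Their 250 bases before the start are printed here with that motif in capitals. The other Errfi1 window did not hold it. Ereg, Phlda1, Hbegf and Spry4 had no window, so the motif could not be looked for there. The match begins 51 bases before the start of Errfi1 and 61 before that of Areg and is a description of the letters, chosen after they were seen.
Errfi1, chr4:150854820-150855069, plus strand: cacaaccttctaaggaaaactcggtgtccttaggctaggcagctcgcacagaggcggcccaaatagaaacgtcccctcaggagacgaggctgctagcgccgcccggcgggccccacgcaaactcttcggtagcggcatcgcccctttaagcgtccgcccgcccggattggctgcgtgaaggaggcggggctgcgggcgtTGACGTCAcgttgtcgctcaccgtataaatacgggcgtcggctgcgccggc
Areg, chr5:91139349-91139598, plus strand: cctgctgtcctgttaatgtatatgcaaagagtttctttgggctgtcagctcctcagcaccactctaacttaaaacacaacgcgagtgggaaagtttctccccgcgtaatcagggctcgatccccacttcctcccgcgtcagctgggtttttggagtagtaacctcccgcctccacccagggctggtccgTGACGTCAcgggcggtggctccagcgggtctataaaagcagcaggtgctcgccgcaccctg

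Cort against vehicle in tetra cells asked which genes differ with the hormone in the tetra line. Errfi1 (chromosome 4, 150855070 to 150868889) rose 3.30-fold. Its counts were 931, 845 and 930.3 in tetra Cort libraries and 260.1, 291 and 268 in tetra vehicle libraries. Each Cort library held more than any vehicle library (log2 change 1.72 ± 0.09 SE, limma adjusted p = 3.55e-14). Phlda1 (chromosome 10, 111506286 to 111508649) fell to 982, 1025 and 918 counts in tetra Cort libraries, against 1924, 1651 and 1591 in tetra vehicle libraries. The ranges did not overlap, and the change was 1.76-fold (log2 change -0.82 ± 0.08, limma adjusted p = 2.88e-08). Hbegf (chromosome 18, 36504927 to 36515805) fell to 200.5, 236 and 262 counts, against 319, 296 and 326, a 1.35-fold change without overlap (log2 change -0.44 ± 0.11, limma adjusted p = 0.0245). In bulk RNA, fewer cells that express a gene and less of its RNA per cell cannot be told apart.

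These 3 called members, of 7 tested, stand beside 2.55% of all genes tested that were called in this comparison, 1.97% higher and 0.575% lower. The other 4 did not pass the test. Areg averaged 110.5 ± 15.9 counts in tetra Cort and 137 ± 10.2 in tetra vehicle cells, without overlap, with a log2 change of -0.32 and a limma adjusted p of 0.416. For Ereg, Spry2 and Spred1 the log2 changes were -0.11, -0.14 and -0.01, with 95% intervals of -0.29 to 0.08, -0.35 to 0.07 and -0.15 to 0.12. The call of Hbegf was lost without tetra vehicle libraries 1 or 3 or tetra Cort libraries 1 or 2 (limma adjusted p up to 0.218), and at 0.0506 without the 6 wt libraries given TCA. On the deposited variance-stabilised scale, which compresses low counts, the change of Errfi1 was 0.88 and that of Hbegf -0.17, both called.

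In wt cells Cort went with lower Phlda1. It fell to 1613, 1549 and 1445 counts in wt Cort libraries, against 1993, 1877 and 1931 in wt vehicle libraries, without overlap. The change was 1.26-fold (log2 change -0.33 ± 0.08, limma adjusted p = 0.038). It was the 1 member called of 7, where 1.00% of all genes tested were called, 0.583% higher and 0.419% lower. Errfi1 counts were 328, 317 and 312 in wt Cort libraries and 265, 223 and 302 in wt vehicle libraries, also without overlap, with a log2 change of 0.28 ± 0.09 that did not pass (limma adjusted p = 0.137). Ereg averaged 203 ± 8.04 counts in wt Cort and 236 ± 16.9 in wt vehicle cells, without overlap (limma adjusted p = 0.325). Hbegf averaged 249.9 ± 19.2 in wt Cort and 286 ± 13.9 in wt vehicle cells, also without overlap (limma adjusted p = 0.491), and Areg, Spry2 and Spred1 had adjusted p of at least 0.62. The call of Phlda1 was lost without any 1 of the 6 libraries (limma adjusted p 0.0586 to 0.16), under scaling to total exon reads (log2 change -0.23) and without the filter (adjusted p = 0.0751). That of Errfi1 was gained under scaling to total exon reads (adjusted p = 0.0406) and without wt vehicle library 3 (adjusted p = 0.0361).

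Whether the lines differed in their response to Cort was tested directly, which cannot tell receptor form and line apart. The wt side of this test is the wt libraries without TCA described above. The response of Errfi1 was larger in tetra by 1.44 ± 0.13 on the log2 scale (95% interval 1.18 to 1.69, limma adjusted p = 4.35e-08). That of Phlda1 was more negative in tetra, by -0.48 ± 0.11 (95% interval -0.72 to -0.25, limma adjusted p = 0.0344). They were 2 of 7 members, beside 0.805% of all genes tested, 0.739% more positive and 0.0657% more negative. For Areg the difference was -0.51, the second largest in size after Errfi1, but it did not pass (95% interval -0.91 to -0.11, limma adjusted p = 0.567). Those of Hbegf, Spry2, Ereg and Spred1 were -0.24, -0.15, 0.11 and -0.05, with adjusted p of 0.999. The call of Phlda1 was lost without the filter (adjusted p = 0.0736) and without any of 8 of the 12 libraries: wt vehicle 1, 2 or 3, wt Cort 1 or 2, tetra vehicle 1, and tetra Cort 1 or 3 (adjusted p up to 0.176).

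TCA against vehicle in tetra cells called no member of 7 in limma, with or without voom weights, where 6 genes or 0.0493% of those tested were called, all higher. The largest member changes were those of Errfi1, Ereg and Phlda1. Errfi1 counts were 338, 346 and 328 in tetra TCA libraries, against 260.1, 291 and 268 with vehicle (log2 change 0.30 ± 0.09, limma adjusted p = 0.66). Ereg (chromosome 5, 91074617 to 91093649) had 491, 428 and 397 counts with TCA, against 352, 392 and 333 with vehicle (log2 change 0.29 ± 0.09, adjusted p = 0.719). For both genes the groups did not overlap, while Phlda1, at 1968, 1885 and 2296 counts against 1924, 1651 and 1591, did overlap (log2 change 0.25 ± 0.08, adjusted p = 0.725). Errfi1, Ereg and Phlda1 had unadjusted limma p of 0.00197, 0.00396 and 0.00452. For Areg, Spry2, Hbegf and Spred1 the log2 changes ran between 0.04 and 0.23.

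In wt cells TCA went with higher Ereg and Errfi1 and lower Phlda1. Ereg counts were 454, 406 and 476 in wt TCA libraries, against 246, 245 and 216 in wt vehicle libraries, a 1.88-fold rise (log2 change 0.91 ± 0.09, limma adjusted p = 2.11e-09). Errfi1 had 512, 412 and 492 counts with TCA, against 265, 223 and 302 with vehicle, a 1.79-fold rise (log2 change 0.84 ± 0.09, adjusted p = 5.87e-09). Phlda1 fell to 1297, 1182 and 1382 counts, against 1993, 1877 and 1931 (log2 change -0.59 ± 0.08, adjusted p = 5.59e-07). None of these pairs of groups overlapped. They were 3 of 7 members where 57.6% of all genes were called, 28.5% higher and 29.2% lower, and nothing particular to the members is read from the count. Areg, Hbegf, Spry2 and Spred1 had log2 changes of 0.25, 0.11, 0.23 and 0.09 and limma adjusted p of 0.127, 0.428, 0.0588 and 0.228. Of these only Spred1 had groups that did not overlap. Spry2 was called under scaling to total exon reads (adjusted p = 0.0323) and without wt TCA library 3 (0.0221), and Areg without wt vehicle library 2 (0.0297). The Cort and TCA comparisons of a line share its 3 vehicle libraries, so the 2 log2 changes of a gene in a line are not independent of each other.

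Tested against each other, the TCA responses of the lines differed in 3 of the 7 members, beside 44.2% of all genes tested, 22.6% more positive and 21.6% more negative. Nothing particular to the members is read from this count. The response of Phlda1, 0.25 and not called in tetra and -0.59 in wt, was 0.84 ± 0.11 more positive in tetra (limma adjusted p = 1.15e-06). The responses of Ereg and Errfi1 were smaller in tetra than in wt, with differences of -0.63 ± 0.13 and -0.54 ± 0.13 (adjusted p = 0.000266 and 0.000983). The differences of Areg, Hbegf, Spry2 and Spred1 lay between -0.08 and 0.02 (adjusted p at least 0.656). All 3 differences rest on the wt TCA and wt vehicle libraries described above.

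**Figure D4:**
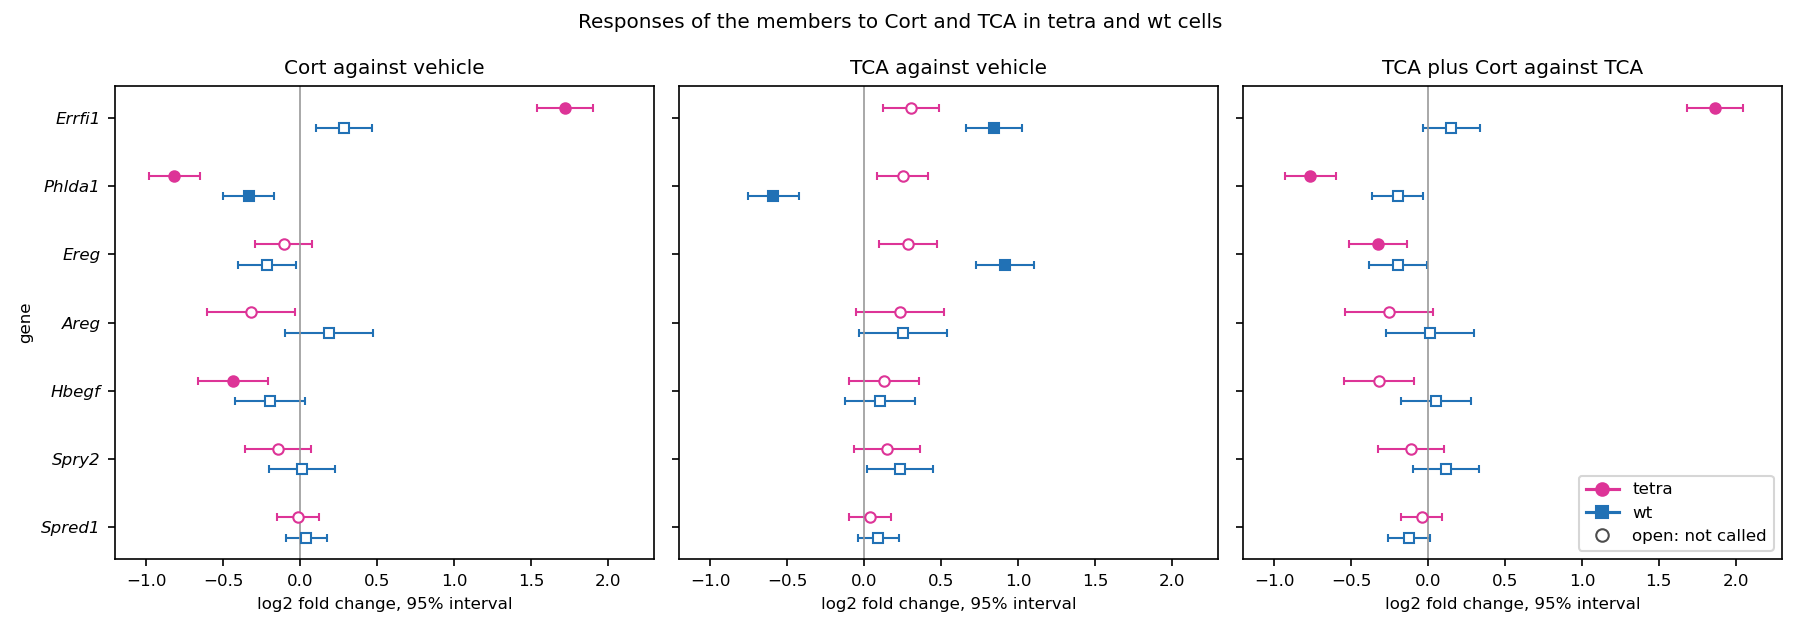
Log2 fold change with its 95% interval (x axes) of the 7 tested members (y axis) for Cort against vehicle, TCA against vehicle, and TCA plus Cort against TCA, in tetra (circles) and wt cells (squares). Filled symbols were called at a limma adjusted p below 0.05 over all genes. Errfi1 is 1.72 and 1.86 higher with Cort in tetra cells and 0.28 and 0.15 higher in wt cells.

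Cort on top of TCA was compared with TCA alone. In tetra cells Errfi1 rose 3.64-fold, to 1291, 1253 and 1147 counts in TCA plus Cort libraries, against 338, 346 and 328 in TCA libraries (log2 change 1.86 ± 0.09, limma adjusted p = 6.6e-15). Phlda1 fell to 1308, 1083 and 1224 counts, against 1968, 1885 and 2296 (log2 change -0.76 ± 0.08, adjusted p = 1.07e-07). Ereg fell to 362, 332 and 351 counts, against 491, 428 and 397 (log2 change -0.33 ± 0.09, adjusted p = 0.0417). The groups of all 3 did not overlap, and they were 3 of 7 members where 3.31% of all genes were called, 2.33% higher and 0.977% lower. Hbegf averaged 279 ± 56.2 in TCA plus Cort and 344 ± 33.2 in TCA cells, with overlap (log2 change -0.32, adjusted p = 0.154), and it passed without tetra TCA plus Cort library 1 (adjusted p = 0.00973). The call of Ereg was the weakest, and it was lost with the replicate number as a block. It was also lost on the deposited values of its table (adjusted p = 0.194), in a fit of its own 6 libraries (0.205), without the filter (0.0638), without the 6 wt libraries given TCA (0.0716) and without any of tetra TCA libraries 1 or 2 or the 3 tetra TCA plus Cort libraries (up to 0.192).

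In wt cells the same comparison called no member of 7, where 0.255% of all genes were called, 0.213% higher and 0.0411% lower. Errfi1 averaged 523 ± 11.7 in wt TCA plus Cort and 472 ± 53.0 in wt TCA cells (log2 change 0.15 ± 0.09, 95% interval -0.03 to 0.33, limma adjusted p = 0.441). Phlda1 averaged 1123 ± 81.0 and 1287 ± 101 (log2 change -0.20 ± 0.08, adjusted p = 0.298). At an unadjusted limma p below 0.05 stood Phlda1, at 0.0227, and Ereg, at 0.0425. Spred1 was the only member whose ranges did not overlap, at 1459, 1560 and 1436 counts in TCA plus Cort and 1641, 1616 and 1590.2 in TCA libraries (adjusted p = 0.407).

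TCA on top of Cort was compared with Cort alone. In tetra cells Errfi1 was the 1 member called of 7, beside 0.0739% of all genes (0.0575% higher and 0.0164% lower), at 1291, 1253 and 1147 counts in TCA plus Cort libraries and 931, 845 and 930.3 in Cort libraries, without overlap (log2 change 0.45 ± 0.09, limma adjusted p = 0.0386). The call was lost with the replicate number as a block. It was also lost without the filter (adjusted p = 0.0762) and without any of the 6 libraries but tetra TCA plus Cort library 3 (up to 0.49). The 9 genes called in this comparison became 241 without that library 3 and 2 to 8 without each of the other 5. Phlda1 and Spry2 were also higher in every TCA plus Cort library than in any Cort library, with log2 changes of 0.30 and 0.18 and adjusted p of 0.359 and 0.668.

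In wt cells 5 of 7 members were called between TCA plus Cort and Cort, where 56.6% of all genes were, 28.4% higher and 28.2% lower. Ereg rose to 382, 408 and 376 counts in TCA plus Cort libraries, against 194, 209 and 205 in Cort libraries (log2 change 0.94 ± 0.09, limma adjusted p = 1.44e-09). Errfi1 rose by 0.71 ± 0.09 on the log2 scale, Hbegf by 0.36 ± 0.11 and Spry2 by 0.33 ± 0.10 (adjusted p = 1.27e-07, 0.00773 and 0.00778), and Phlda1 fell by 0.45 (adjusted p = 2.89e-05). All 5 had groups that did not overlap. The call of Spry2 was lost without wt Cort library 3 (adjusted p = 0.0888). Areg and Spred1 averaged 100.5 ± 10.9 and 1485 ± 66.0 counts with TCA plus Cort, against 95.4 ± 9.22 and 1559 ± 90.3 with Cort, and did not pass.

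Whether TCA altered the response to Cort was tested as the Cort response with TCA minus that without it. In tetra cells the difference was 0.14 for Errfi1 (95% interval -0.12 to 0.40) and 0.05 for Phlda1 (-0.18 to 0.29), and in the limma fit no gene of the 12179 tested was called, with or without voom weights, while 733 had an unadjusted p below 0.05. No member reached an unadjusted p below 0.05 there, the lowest being 0.101 for Ereg. In wt cells it was -0.13 for Errfi1 (95% interval -0.39 to 0.13) and 0.14 for Phlda1 (-0.10 to 0.37), with no member called where 0.534% of all genes were, 0.312% more positive and 0.222% more negative. A miss of the threshold does not show that the responses were alike, and the intervals give the sizes these data allow.

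Between the lines under vehicle, the ligands Ereg and Areg were higher in tetra. Ereg counts were 352, 392 and 333 in tetra vehicle libraries, against 246, 245 and 216 in wt vehicle libraries (1.52-fold, log2 difference 0.60 ± 0.09, limma adjusted p = 5.95e-06). Areg (chromosome 5, 91139599 to 91148432) had 131, 132 and 149 counts, against 72.4, 100.4 and 79.2 (1.64-fold, log2 difference 0.72 ± 0.14, adjusted p = 0.000171). Neither pair of groups overlapped. With TCA, Ereg averaged 439 ± 48.2 counts in tetra and 446 ± 36.1 in wt cells, and Areg 162 ± 14.0 and 99.7 ± 11.96. With TCA plus Cort, Ereg averaged 349 ± 15.3 and 389 ± 16.9, and Areg 135 ± 13.7 and 100.5 ± 10.9. The higher Ereg in tetra thus held under vehicle and not with TCA. The wt vehicle libraries are among those without TCA that lay apart on the first principal component. The genes of both ligands are neighbours, 45.9 kb apart. They were 2 of 7 members called, near the 38.7% of all genes that differed between the lines (18.9% higher and 19.8% lower), so nothing particular to the members is read from the count. Errfi1 averaged 273 ± 16.3 in tetra and 264 ± 39.5 in wt vehicle cells (adjusted p = 0.628) and Phlda1 1722 ± 178 and 1933 ± 58.3 (adjusted p = 0.0963). Spred1 ranged from 1648 to 1754 in tetra and from 1469 to 1550.2 in wt vehicle libraries without overlap, at an adjusted p of 0.0563, and it was called under scaling to total exon reads (0.0148) and in a fit of its own 6 libraries (0.00964). The fit of those 6 libraries called Phlda1 too (0.0155), as did the fit without tetra vehicle library 1 (0.0219).

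Genes around the receptor were counted from 6 lists of the pathway, with 45 of 55 listed genes tested. The lists were chosen with earlier results of these data known, so their shares are given as a description only. With Cort in tetra cells 4 rose and 2 fell, 13.3% of the 45 beside 2.55% of all genes tested. The median log2 change of the 45 was -0.00, as over all genes. The early genes Ier3 and Fosl1, which ERK induces, fell to 209 ± 18.9 and 1099 ± 31.0 counts, against 340.1 ± 48.4 and 1557 ± 165 with vehicle (limma adjusted p = 1.32e-05 and 0.0381). Socs3, an inhibitor of cytokine signalling, rose to 465 ± 25.9 against 337 ± 25.9, the GTPase Hras to 2246 ± 126 against 1697 ± 111, the ubiquitin ligase Cblb to 929 ± 74.9 against 718 ± 33.7, and the sheddase Adam9 to 3197 ± 80.4 against 2797 ± 61.7 (limma adjusted p = 0.000619, 0.000251, 0.00296 and 0.021). By list, 2 of 8 ERK-responsive genes fell, 2 of 16 adaptors and kinases, 1 of 12 other feedback inhibitors and 1 of 4 sheddases rose, and none of 2 receptors or 3 ligands passed.

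With Cort in wt cells 1 of the 45 rose and 2 fell, 6.67% of them beside 1.00% of all genes tested. Cblb rose to 938 ± 41.3 counts, against 743 ± 68.1 with vehicle, and the phosphatases Dusp4 and Dusp5 fell to 2886 ± 156 and 52.7 ± 10.0, against 4134 ± 111 and 87.4 ± 15.2 (limma adjusted p = 0.0192, 0.00467 and 0.0262). Of the 45, the Cort response differed between the lines for Hras alone, by 0.46 (limma adjusted p = 0.0112). This is 2.22% of the 45 beside 0.805% of all genes tested. With TCA plus Cort against TCA, 3 rose and 2 fell in tetra cells, 11.1% of the 45 beside 3.31% of all genes tested. None of the 45 passed in wt cells, where 0.255% of all genes were called. Hras, Socs3 and Rhbdf1, a cofactor of the sheddases, had log2 changes of 0.40, 0.36 and 0.38, and Ier3 and Fosl1 of -0.67 and -0.49 (limma adjusted p = 0.000257, 0.00968, 0.00347, 2.12e-05 and 0.0343).

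With TCA none of the 45 passed in tetra cells, where 0.0493% of all genes were called. In wt cells 18 rose and 12 fell, 66.7% of the 45 beside 57.6% of all genes tested. The smallest adjusted p in wt were those of Dusp4 (log2 change -2.51), the kinase Mapk3, which is ERK1 (-0.79), the ligand Nrg1 of Erbb3 and Erbb4 (-0.89), Socs3 (0.92), the sheddase Adam10 (-0.58) and the phosphatase Dusp6 (1.14), with limma adjusted p of at most 3.24e-08. The median over the 45 was 0.05, against -0.01 over all genes. With TCA plus Cort against Cort, 17 rose and 13 fell in wt, 66.7% of the 45 beside 56.6% of all genes tested. None of the 45 passed in tetra, where 0.0739% of all genes were called. Between the lines under vehicle 11 were higher and 7 lower in tetra, 40% of the 45 beside 38.7% of all genes tested. Nrg1, Dusp4 and Mapk3 were lower in tetra vehicle cells, at 815 ± 103, 667 ± 13.3 and 2027 ± 143 counts, against 1745 ± 29.2, 4134 ± 111 and 3037 ± 106 in wt vehicle cells. In wt TCA cells the same 3 genes stood at 944 ± 48.3, 733 ± 150 and 1754 ± 100.4 counts, nearer to the tetra than to the wt vehicle values. The TCA response differed between the lines for 18 of the 45, 9 in each direction, or 40% beside 44.2% of all genes tested. Nothing particular to the lists is read from the counts with TCA in wt or between the lines under vehicle.

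Genes whose log2 counts ran most like those of Errfi1 over the 24 libraries were Slc25a33, Slc39a14, Suox, Sik1 and Adgra1, with Pearson r of 0.969, 0.965, 0.954, 0.942 and 0.939. For Phlda1 they were Btg1, Fhl3, Kirrel, Ccdc85b and Dusp10, with r between 0.865 and 0.885. The points are libraries of 8 groups in 2 lines, so these values describe shared group differences.

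Genes on the opposite strand overlap some members, and no strand setting of the counting is given in the sources used here. In GENCODE M21 the noncoding gene Gm28592 shares 727 exon bases with Phlda1 and Gm19610 shares 141 with Ereg, so reads of these pairs may be mixed. No opposite-strand exon overlaps the counted transcripts of Errfi1, Areg, Hbegf, Spry2 or Spred1.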

How the data were processed

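Total RNA of 24 cell line libraries, 3 in each of 8 groups, was depleted of ribosomal RNA and sequenced with stranded kits, per the labels' protocols. Per the submitters' processing notes the tools were cutadapt, STAR 2.7.0f and HOMER 4.10.4 with mm10. Per the file headers, exon reads per RefSeq gene were turned by the authors into variance-stabilised log2 values separately for each of 6 tables. These values were inverted to read counts, and 100% of those below 1000 lay within 0.01 of a whole number. Transcript lengths are other deposited values, used per kb.

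Tables covering all 24 libraries were joined by transcript, and counts were scaled by median-ratio size factors. A linear model with a variance trend (limma 3.58.1, R 4.3.3) was fitted to log2(normalised count + 1) of all 24 libraries for 12179 genes with a mean of at least 10. P-values were adjusted by Benjamini-Hochberg over all of them and called below 0.05, in 13 comparisons. Chi-square per gene between libraries of a group was 2.36 to 33.3, so none was counted as a repeat of another. Floors are 3 reads and cover counting error only. The 10 members, the lists and the tests were chosen with earlier results of these data known. All members are named. From the other lists, the text names up to 3 genes per list and 6 per comparison by smallest adjusted p, and 5 genes most like Errfi1 and Phlda1. The table of TCA in tetra holds a newer gene set and entered only through its own deposited values. The lists also held Egf, Nrg3, Adam17, Etv4, Ptprc, Pecam1 and Kdr, which did not join by transcript. Alternatives were another scaling, the deposited values, each comparison's own libraries, voom weights, no filter, a pseudocount of 5, a replicate block and leaving out each library; joining by symbol and leaving out the 6 wt libraries with TCA were added after seeing the data. Figures used Python 3.11.15 and matplotlib 3.10.9.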

Additional observations from a re-analysis of the deposited data

Results flagged for a closer look

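A set of 5 member results differed between the lines by a direct test of the difference in limma, and were picked out for that reason. The Cort response differed in 2 of 7 members, beside 0.805% of all genes tested. For the TCA response it was 3 of 7, beside 44.2%, and nothing particular to the members is read from that count. The Cort response of Errfi1 was 1.44 larger in tetra than in wt on the log2 scale, and that of Phlda1 was -0.48 in the same terms. The TCA response of Phlda1 was 0.84 larger in tetra than in wt, while those of Errfi1 and Ereg were -0.54 and -0.63. The Cort difference of Errfi1 involves no library given TCA, and its value ranged from 1.33 to 1.55 when 1 of its 12 libraries was left out, called each time. That of Phlda1 involves none either and ranged from -0.54 to -0.40. It was called in only 4 of those 12 fits (limma adjusted p up to 0.176), and not without the filter (0.0736). The 3 differences of the TCA response involve wt libraries with and without TCA, which stand apart from each other. All 5 results involve wt libraries without TCA. These lay between -33.0 and -29.1 on the first principal component, against -1.23 to 5.46 for tetra libraries. What part either set of wt libraries has in these values was not tested. No group has enough libraries to look for a single outlying one.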

How the results depend on the processing

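Of 91 member results, 23 were called, and 17 of these kept their call under every alternative run, left-out libraries included; no called member reversed. The 6 that lost a call under some alternative are Phlda1 with Cort in wt and in the difference of the Cort response, Hbegf with Cort in tetra, Ereg with TCA plus Cort against TCA in tetra, Errfi1 with TCA plus Cort against Cort in tetra, and Spry2 with TCA plus Cort against Cort in wt, each with its value in the report. The cause was not tested. Low reads limit Egfr, Tgfa and Spry4.

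Uncalled members changed sign in a few settings. Scaled to total exon reads, Areg was -0.024 for TCA plus Cort against TCA in wt, Hbegf -0.00646 in the difference of the TCA response, and Ereg -0.085 and Spry2 -0.00485 in the difference of the Cort response with and without TCA in wt. With voom weights Areg was -0.00163 for TCA plus Cort against TCA in wt.

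Counts of called genes moved by more than 1.5 times as follows. On the deposited values they were 304 against 122 in the main analysis for Cort in wt, 53 against 31 for TCA plus Cort against TCA in wt, 2 against 6 for TCA in tetra and 219 against 403 for TCA plus Cort against TCA in tetra. With only each comparison's own groups they were 315, 49, 2 and 203 for the same comparisons, 151 against 98 for the difference of the Cort response, and 458 against 65 for the difference with and without TCA in wt, which was 36 without the filter.

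Same-numbered libraries deviated together only weakly (correlations of -0.156 to 0.260, never above 0.1 in all 3 pairs). The labels do not say what the numbers mark, and these correlations cannot settle whether they pair the samples. With the replicate number as a block, 19 genes were called for TCA plus Cort against TCA in wt, and the adjusted p was 0.0511 for Errfi1 (TCA plus Cort against Cort, tetra) and 0.0649 for Ereg (TCA plus Cort against TCA, tetra).

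Leaving out 1 library at a time, the counts ran over 71 to 112 for Cort in wt, 28 to 461 and 0 to 1 for the difference with and without TCA in wt and in tetra, 11 to 135 and 276 to 645 for TCA plus Cort against TCA in wt and in tetra, 3 to 27 for TCA in tetra and 2 to 241 for TCA plus Cort against Cort in tetra. Log2 values of uncalled members crossed 0 as follows. With Cort, Spry2 ran from -0.057 to 0.13 in wt and Spred1 from -0.048 to 0.013 in tetra. With TCA in tetra, Spred1 ran from -0.0496 to 0.12. Between the lines under vehicle, Errfi1 ran from -0.053 to 0.16. In the difference of the TCA response, Areg ran from -0.15 to 0.079, Hbegf from -0.053 to 0.067, Spry2 from -0.16 to 0.011 and Spred1 from -0.14 to 0.025. In that of the Cort response with and without TCA, Areg ran from -0.033 to 0.17, Hbegf from -0.034 to 0.24, Spry2 from -0.065 to 0.11, Spred1 from -0.11 to 0.059 and Phlda1 from -0.031 to 0.14 in tetra, and Ereg from -0.043 to 0.083 and Spry2 from -0.014 to 0.17 in wt. For TCA plus Cort against Cort, Ereg ran from -0.012 to 0.11 and Spred1 from -0.024 to 0.062 in tetra, and Areg from -0.012 to 0.15 in wt. For TCA plus Cort against TCA, Spred1 ran from -0.12 to 0.046 in tetra and Areg from -0.0875 to 0.078 in wt.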
